A study of Triticum turgidum subsp. durum with 8 samples.

Results

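The N starvation response of L6 shoots was described for 611 distinct miRNA sequences, of 1473 distinct sequences in the whole series. These were all sequences with a mean normalized read count of 10 or more over the 4 L6 libraries, each sequence counted once. L6 is a durum wheat (Triticum turgidum subsp. durum) breeding line that is sensitive to water-deficit and heat stress. The 4 L6 libraries were L6CG_N (control parents, progeny without N), L6WH_N (parents given water-deficit and heat stress, progeny without N), L6CG_C (control parents, progeny on the complete nutrient solution) and L6WH_C (stressed parents, progeny on the complete solution). CG and WH seeds are called the 2 seed groups. Each library was made from the equally pooled RNA of 6 shoots at 3 weeks, and each condition had 1 library, so the comparison of N-starved with control shoots rests on 2 libraries a side. The other 4 libraries of the series hold the same treatments of DBA Aurora, a genotype tolerant to that stress. The question was which miRNAs respond to the loss of N in L6, and whether the seed groups respond alike.

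Plant miRNAs are cut from hairpin precursors by a Dicer-like enzyme, and both arms of a hairpin (5p and 3p) can yield small RNAs. The mature strand is loaded into an ARGONAUTE protein and guides cleavage or translational repression of messenger RNAs with a near-complete match. Several conserved families follow mineral supply: miR169 represses NF-YA transcription factor genes, miR399 represses a ubiquitin-conjugating enzyme that limits phosphate uptake, miR827 represses SPX-domain genes, and miR395 represses genes of sulfate uptake and assimilation. In the names used here, p5 and p3 mark an arm predicted from the hairpin, L and R give bases added or lost at the 5′ and 3′ end, and ss gives a substitution relative to the miRBase entry.

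Across libraries, 21 of the 611 sequences were called (limma, adjusted p under 0.05), which is 3.44% of those tested. Of these, 20 fell (3.27%) and 1 rose (0.164%). The number of rises depended on the setting: 13 rose and 40 fell with a pseudocount of 5, 18 rose and 35 fell without the parental block, 17 rose and 43 fell with zeros raised to the floor, and 0 rose and 33 fell with libraries scaled to equal totals. The 20 that fell belonged to miR169 (17 sequences), miR399 (2 sequences) and miR398 (1 sequence), and the single rise was tae-miR9676-5p. Leaving out either L6 pair ended all 21 calls (0 called, with 97 and 119 at an unadjusted p under 0.05). The called sequences are given from the deposited table as DNA letters, with bases 2 to 8 (the seed) in capitals. Called 5p members of miR169 that shared the seed AGCCAAG, 4 in number, are given first:
ata-miR169a-5p: tAGCCAAGgatgatttgcctgtg
ata-miR169d-5p: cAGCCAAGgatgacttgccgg
ata-miR169i-5p_1ss15TC: tAGCCAAGgatgacctgcctg
gma-miR169j-5p_R-1_1ss20GT: tAGCCAAGaatgacttgcct

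The opposite arms and shifted reads of miR169 had other seeds, and they show that both strands of the hairpins were read:
ata-miR169a-3p: tGGGCAAGtcaccctggctacc
ata-miR169h-3p_L-1: cAAGTTGTtcttggctagc
ata-MIR169h-p5: aGAATGTAgccaaggatgact
ata-MIR169d-p3: tTGTCCTTggctacacctagt
bdi-MIR169c-p3: tGGCTACAcctagttctcttc
bdi-MIR169c-p5_1ss16GC: cTAAGAGGcagagaacgggatg
bdi-miR169c-3p_L+1_2ss6GA13CT: cGGCAAGTtgtctttggctac
ata-miR169g-3p_L+1R-1: cGGCGAGTtgttcttggctac
bdi-miR169h-3p: gGCAGTCAccttggctagc
far-MIR169-p3_1ss8AG: gGCAGTCGccttggctagc
far-MIR169-p5_2ss18CT24AG: tGGCTGCAagggccttatctctgg
bdi-MIR169d-p3: gGTGGGTCttcttggctagcc
bdi-MIR169d-p3_1ss19GA: gGTGGGTCttcttggctaacc

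The remaining called sequences were both members of miR399, which shared the seed GCCAAAG, a 5p read of miR398, and tae-miR9676-5p:
osa-miR399d: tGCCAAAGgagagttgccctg
bdi-miR399a_1ss16AG: tGCCAAAGgagaattgccctg
mtr-miR398a-5p_2ss9AG17CA: gGAGTGACgctgagaaaacaag
tae-miR9676-5p: tGGATGTCatcgtggccgtaca

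The depth bears on how low a value can be read. In the L6 libraries 1 read was worth 0.975 (L6CG_N), 0.649 (L6WH_N), 1.08 (L6CG_C) and 0.718 (L6WH_C) normalized counts, and the table held an estimated 1214010 to 2305750 reads per L6 library. The table lists almost nothing from under 5 reads, so a value of 0 is read here as fewer than 5 reads in that library. The summed normalized counts differed, being lowest in L6WH_C. Of the 611 sequences, 554 were above 0 in all 4 L6 libraries and 410 were at 10 or more in all 4. The mean of 10 divided tae-miR9783_L+3_2ss7AG20AC, just inside at 10.0018, from tae-miR9666a-3p, just outside at 9.99938. Related sequences can carry identical deposited values: 107 members shared theirs with another member, which left 544 distinct sets of values. Log2 counts of libraries that differ in N alone correlated at 0.815 (L6CG) and 0.848 (L6WH), against 0.943 between both N-starved and 0.936 between both control libraries. These correlations describe the 611 sequences and carry no test.

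The deepest falls were in miR169, and 9 of the 17 called sequences of the family were listed at 0 in both N-starved libraries. The 3p strand ata-miR169a-3p had normalized counts of 7.80 in L6CG_N and 2.27 in L6WH_N, against 6073 in L6CG_C and 2699 in L6WH_C. Its log2 change was -9.56 ± 0.32 (SE, adjusted p = 0.000305, limma). Its partner on the other arm, ata-miR169a-5p, was listed at 0 in L6CG_N and L6WH_N, against 430.1 in L6CG_C and 267 in L6WH_C. With fewer than 5 reads on the N-starved side, ata-miR169a-5p was at least 88.2-fold lower in L6CG_N than in L6CG_C and at least 82.4-fold lower in L6WH_N than in L6WH_C (floor of 5 reads per library). Both arms were thus high in control shoots and near or under the floor in N-starved shoots, with no overlap.

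Of the 25 miR169 members, 17 were called lower, 24 were lower past the pair rule in both seed groups, and 11 were listed at 0 in both N-starved libraries. The pair rule was Fisher's exact test on rounded normalized counts at p under 0.05 with a log2 ratio past 1. Its thresholds are those of the study, which also used a chi-square test and does not state rounding, and it compares a pair of libraries, not conditions. ata-miR169h-3p_L-1 was listed at 0 in L6CG_N and L6WH_N, against 621 in L6CG_C and 353 in L6WH_C, and was at least 127-fold and 109-fold lower in these pairs. ata-miR169i-5p_1ss15TC had 4.88 in L6CG_N and 0 in L6WH_N, against 938 in L6CG_C and 595 in L6WH_C. The predicted arm bdi-MIR169c-p3 was listed at 0 in L6CG_N and L6WH_N, against 395 in L6CG_C and 226 in L6WH_C. In all of these the control libraries were higher for both seed groups, and L6CG_C was the highest.

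Some miR169 strands stayed readable without N, and their changes are therefore better measured. ata-MIR169d-p3, which the study followed by qPCR, had 61.4 in L6CG_N and 40.3 in L6WH_N, against 2524 in L6CG_C and 1779 in L6WH_C (log2 change -5.38 ± 0.38, adjusted p = 0.00234, limma). The most abundant member was bdi-miR169c-3p_L+1_2ss6GA13CT. It had 117 in L6CG_N and 245 in L6WH_N, against 9136 in L6CG_C and 4455 in L6WH_C. In the L6CG pair the log2 ratio of bdi-miR169c-3p_L+1_2ss6GA13CT was -6.27 (95% interval -6.56 to -6.03), and in the L6WH pair -4.18 (-4.34 to -4.03). The intervals are exact binomial ones, computed from estimated reads, and cover counting error only. The intervals of these 2 pairs of libraries do not overlap, and with 1 pair a seed group the difference has no replicate check.

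ata-miR169f-3p_R-1 showed the same order but missed the threshold across libraries, with 367 in L6CG_N and 683 in L6WH_N, against 6258 in L6CG_C and 2789 in L6WH_C (log2 change -3.06 ± 0.53, adjusted p = 0.0518, limma). ata-miR169d-5p had 138 in L6CG_N and 62.3 in L6WH_N, against 1361 in L6CG_C and 999 in L6WH_C (log2 change -3.64 ± 0.36, adjusted p = 0.00663). Summed over its 44 sequences in the table, miR169 came to 766 in L6CG_N and 1129.6 in L6WH_N, against 30863 in L6CG_C and 16412 in L6WH_C (log2 change -4.60 ± 0.39, adjusted p = 4.3e-08). The single exception among the members was sly-miR169a_R+4, at 0 in L6CG_N and 9.74 in L6WH_N, against 32.3 in L6CG_C and 5.03 in L6WH_C.

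The fall was spread over the genome and over both arms of the hairpins. Members of miR169 were placed in 16 hairpins of the Svevo.v1 assembly, and in all 16 each placed member was lower past the pair rule in both seed groups. On chromosome 2B, the hairpin at 634181110-634181254 (plus strand) yielded 4 members from its 2 arms, 3 of them called, among them ata-miR169d-5p and ata-MIR169d-p3. Also on 2B, the hairpins at 763111983-763112157 and 763115311-763115444 (plus strand) lay 3153 bases apart. gma-miR169j-5p_R-1_1ss20GT and both called far-MIR169 strands were placed there. The strand far-MIR169-p3_1ss8AG also matched 5B:478571163-478571291 (plus strand), so its reads cannot be assigned to 1 copy. Both arms of ata-miR169a came from 4A:613053326-613053472 (plus strand) and 5B:683842606-683842724 (minus strand), and ata-miR169a-5p also matched 4A:612907887-612907985 (plus strand), so their reads cannot be assigned to 1 copy. Both strands of ata-miR169h, ata-miR169h-3p_L-1 and ata-MIR169h-p5, came from 7B:641714593-641714720 (minus strand), which lay 2987 bases from the nearest annotated gene. These hairpins lay outside annotated genes, unlike that of ata-miR169g-3p_L+1R-1 at 3A:208192620-208192719 (minus strand), which lay within the gene model TRITD_3Av1G084760.

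**Figure D1:**
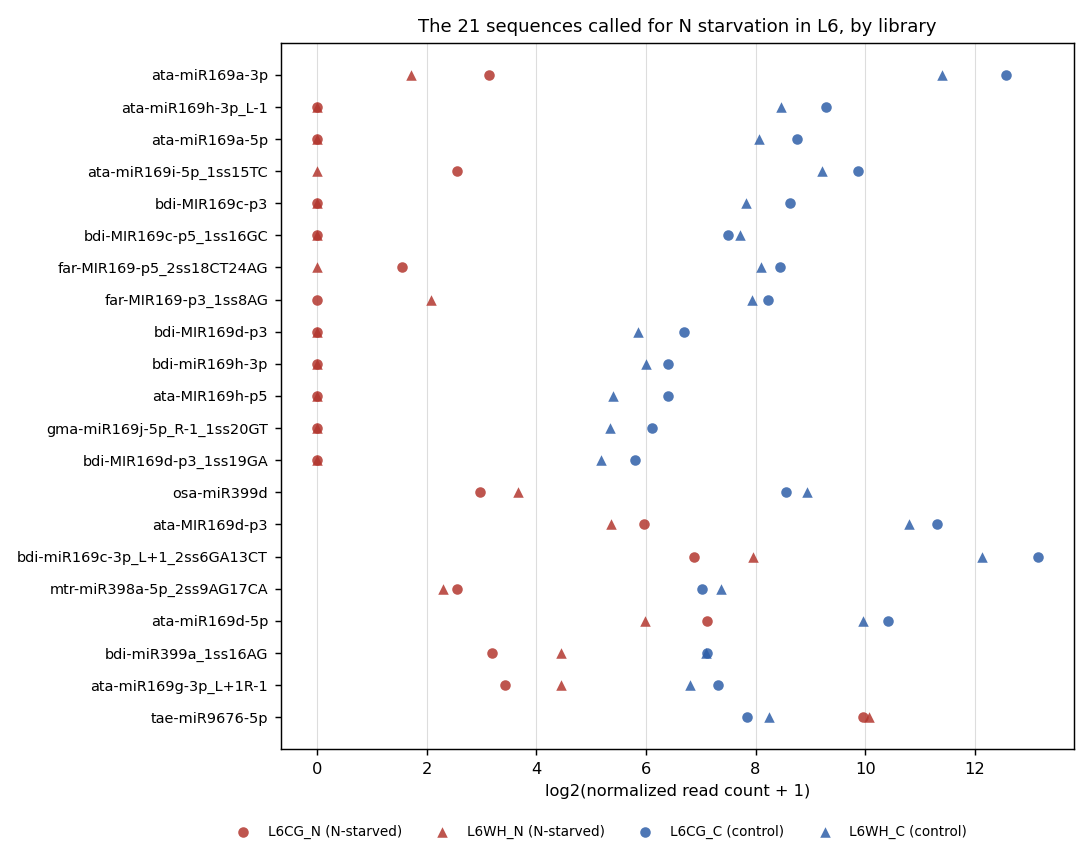
Normalized read counts, as log2 of the count plus 1 on the horizontal axis, of the 21 called sequences (rows) in the N-starved (red) and control (blue) L6 libraries, with circles for CG and triangles for WH seeds. In the 20 upper rows the red points lie below all blue points, 9 rows have both red points at 0, and tae-miR9676-5p in the last row has both red points above the blue ones.

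miR399, which rises in phosphate-starved plants and there relieves the block on phosphate uptake, fell as well. osa-miR399d had normalized counts of 6.83 in L6CG_N and 11.7 in L6WH_N, against 374 in L6CG_C and 491 in L6WH_C. bdi-miR399a_1ss16AG had 8.13 in L6CG_N and 20.8 in L6WH_N, against 137 in L6CG_C and 136 in L6WH_C. Both were low in each N-starved library and high in each control library. The family total was 15.0 in L6CG_N and 32.5 in L6WH_N, against 519.8 in L6CG_C and 702 in L6WH_C (log2 change -4.71 ± 0.46, adjusted p = 2.1e-07, limma). With the mean of the log2 values of its sequences in place of the total, the change of miR399 was -2.06 and was not called (adjusted p = 0.0525). osa-miR399d was read from 2A:647223397-647223515 (minus strand), 764 bases from the nearest annotated gene.

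The 2 pairs of libraries gave different ratios for miR827, with no replicate check of the difference. osa-miR827, its most abundant sequence, had 5089 in L6CG_N and 1836 in L6WH_N, against 5412 in L6CG_C and 9906 in L6WH_C. The log2 ratio of osa-miR827 was -0.09 (95% interval -0.14 to -0.03) in the L6CG pair and -2.43 (-2.49 to -2.37) in the L6WH pair. Across libraries its log2 change of -1.26 ± 0.59 was not called (adjusted p = 0.281, limma). The variant osa-miR827_1ss1TG was lower in both pairs, with 36.1 in L6CG_N and 16.2 in L6WH_N, against 94.8 in L6CG_C and 307 in L6WH_C. The only miR395 member, bdi-miR395a, was near the detection floor, with 10.5 in L6CG_N and 11.6 in L6WH_N, against 20.96 in L6CG_C and 35.5 in L6WH_C.

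Taken as a list, these mineral-supply families (miR169, miR395, miR399 and miR827) had 32 members, of which 19 fell and 0 rose, against 3.27% and 0.164% of all members. Their median log2 change was -5.21 (-3.77 with zeros raised to the floor of 5 reads), and that of all members was -0.06. Of the 32 members 25 were of miR169, and so were 17 of the 19 falls, so these figures describe miR169 in large part. The other 2 falls were of miR399. In miR827 (4 members, median log2 change -1.38) 0 were called. The list was chosen with earlier results of these data known. It held 0.450% of the reads in L6CG_N and 0.211% in L6WH_N, against 2.83% in L6CG_C and 2.56% in L6WH_C. In bulk shoots, fewer cells that make a miRNA and fewer copies in each cell cannot be told apart.

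Copper and redox families gave a mixed picture. The families listed (miR397, miR398, miR408 and miR528) repress laccases, superoxide dismutases and other copper proteins, and miR408 had no member here. Of the 10 members of the others 1 fell and 0 rose, against 3.27% and 0.164% of all members. Past the pair rule in both pairs 2 were higher and 1 lower, against 5.24% and 10.1% of all members. Both N-starved libraries lay above both control libraries in 7 and below both in 2, against 24.4% and 28.0% of all members. The median log2 change was 0.43. The 5p read mtr-miR398a-5p_2ss9AG17CA fell, with 4.88 in L6CG_N and 3.90 in L6WH_N, against 129 in L6CG_C and 164 in L6WH_C (log2 change -4.77 ± 0.53, adjusted p = 0.0104, limma). That call was lost with no filter (adjusted p = 0.0557) and without the L6CG pair (0.133) or the L6WH pair (0.137). The mature strand tae-miR398_L-1R+1 pointed the other way, with 98.5 in L6CG_N and 127 in L6WH_N, against 45.3 in L6CG_C and 25.1 in L6WH_C. The log2 change of tae-miR398_L-1R+1 was 1.70 ± 0.44 and was not called (adjusted p = 0.113). tae-MIR398-p5 had 664 in L6CG_N and 309 in L6WH_N, against 138 in L6CG_C and 124 in L6WH_C (log2 change 1.79 ± 0.37, adjusted p = 0.0718). Reads named miR398 thus lay on both sides of 0.

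The single rise called with the settings used here was in miR9676, a family named from wheat. tae-miR9676-5p had 994 in L6CG_N and 1075 in L6WH_N, against 228 in L6CG_C and 303 in L6WH_C. Its log2 change was 1.97 ± 0.29 (adjusted p = 0.0309, limma). The other arm, tae-MIR9676-p3, had 1109.6 in L6CG_N and 716 in L6WH_N, against 186 in L6CG_C and 291 in L6WH_C (log2 change 1.93 ± 0.40, adjusted p = 0.0718). Both came from the hairpin at 3B:208059262-208059379 (minus strand), and in both the N-starved libraries were above the control libraries. The call of tae-miR9676-5p did not hold with no filter (adjusted p = 0.0557), with libraries scaled to equal totals (0.0611), with no trend (0.0947) or with the L6 libraries fitted alone (0.118), nor without any 1 pair of libraries (0.141 to 0.188). Over all alternatives its adjusted p ran between 0.0131 and 0.188.

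By family totals, 1 of 105 families rose (0.952%) and 7 fell (6.67%), all at adjusted p under 0.05 (limma). Without the L6CG pair 0 families were called (18 at an unadjusted p under 0.05), and without the L6WH pair 1 was. Besides miR169 and miR399, the families that fell were miR9661, miR9774, miR9773, miR9654 and miR530, of which the first 4 are known from wheat. With quantile normalization none of these 5 was called (adjusted p between 0.115 and 0.251). With no filter, miR9661, miR530 (0.0904 each) and miR9654 (0.0650) were not called, and without the parental block miR530 (0.0562) and miR9773 (0.0540) were not. With the mean of member log2 values, miR530 (0.230) and miR9654 (0.378) were not called. miR9661 had a total of 462 in L6CG_N and 249 in L6WH_N, against 2325 in L6CG_C and 2738 in L6WH_C (log2 change -2.89 ± 0.60). miR9774 had 1147.6 in L6CG_N and 823 in L6WH_N, against 4354 in L6CG_C and 8317 in L6WH_C (log2 change -2.63 ± 0.42). miR9773, here a single abundant 25-nt sequence, had 5402 in L6CG_N and 4960.1 in L6WH_N, against 12559 in L6CG_C and 21808 in L6WH_C (log2 change -1.68 ± 0.36). In each of these the control libraries lay above both N-starved libraries.

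For miR9654 and miR530 the log2 ratio was further from 0 in the L6CG pair than in the L6WH pair, a difference with no replicate check. miR9654 had 186 in L6CG_N and 379 in L6WH_N, against 1242 in L6CG_C and 842 in L6WH_C (log2 change -1.94 ± 0.42). miR530 had 204 in L6CG_N and 442 in L6WH_N, against 1588 in L6CG_C and 853 in L6WH_C (log2 change -1.95 ± 0.45). The rise of miR9676 came to 2103 in L6CG_N and 1792 in L6WH_N, against 415 in L6CG_C and 594 in L6WH_C (log2 change 1.97 ± 0.38). Close to the threshold on the upper side were miR160 and miR9675 (adjusted p = 0.053 each), miR396 and miR9783. On the lower side miR9658, miR9777 and miR827 came close.

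**Figure D2:**
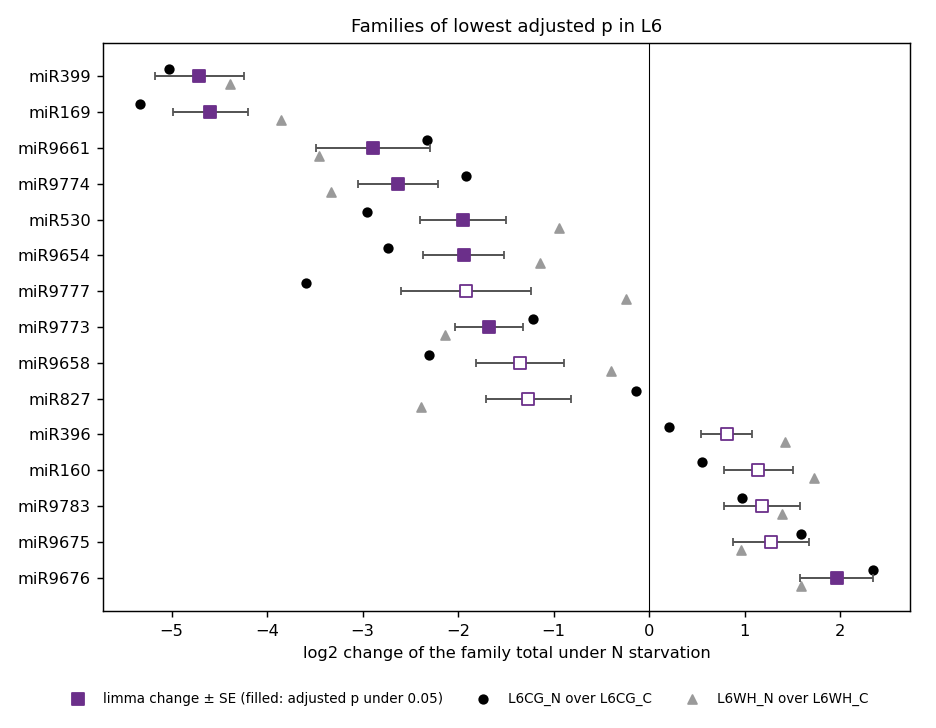
Log2 change of family totals under N starvation in L6 (squares, with SE bars, filled where the adjusted p was under 0.05), with the log2 ratio of each seed group (circles for L6CG, triangles for L6WH). The bars of miR399 and miR169 end furthest from 0, at changes of -4.71 and -4.60, and miR827 shows the circle near 0 and the triangle at -2.39.

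Compared by pairs of libraries, more sequences passed, under a rule that weighs counting error alone. In the L6CG pair 98 were higher (16.0%) and 127 lower (20.8%) in L6CG_N than in L6CG_C. In the L6WH pair 88 were higher (14.4%) and 129 lower (21.1%) in L6WH_N than in L6WH_C. Both pairs together had 32 higher (5.24%) and 62 lower (10.1%) in the same direction, and 17 passed in opposite directions. The 94 shared sequences were 41.8% of those past the rule in L6CG and 43.3% of those in L6WH. The direction was the same in both pairs for 386 sequences (63.2%). The N-starved libraries were both above both control libraries for 149 sequences (24.4%) and both below for 171 (28.0%).

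**Figure D3:**
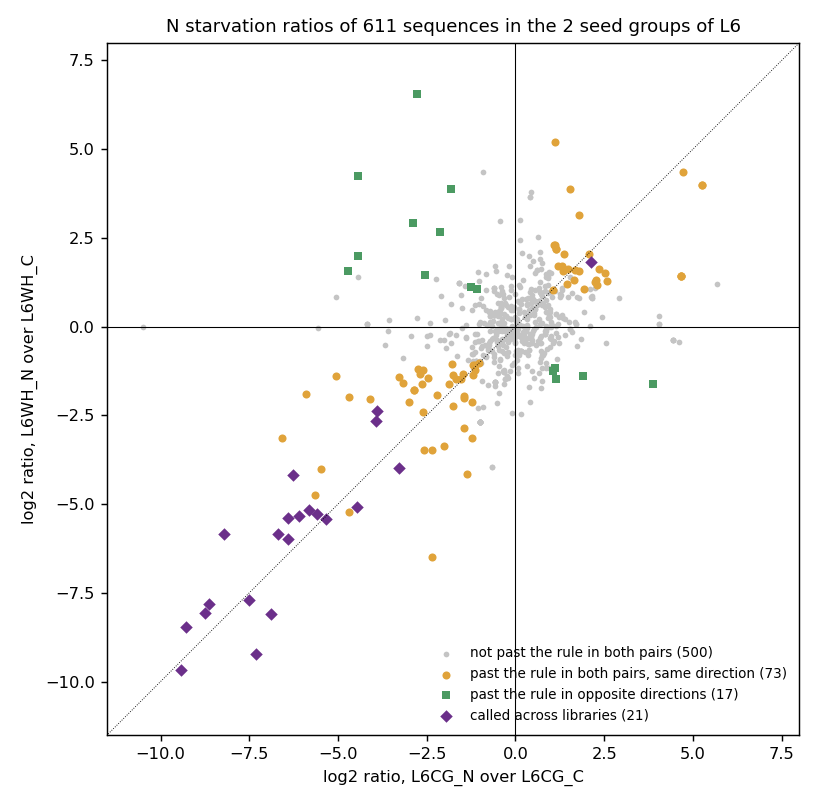
Log2 ratio of the 611 sequences in the L6CG pair (horizontal) and the L6WH pair (vertical), each N-starved over control, with the dotted line marking equal ratios. The 20 called falls lie in the lower left, and the 17 sequences past the rule in opposite directions lie in the upper left and lower right.

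The 32 sequences higher in both pairs included 13 of the wheat and cereal list, which has 138 of the 611 members. That was 9.42% of the list, against 5.24% of all members, and 7 of these 13 were variants of gma-MIR5368. Of conserved families, they included 4 of 9 members of miR159, 3 of 5 of miR319, 2 of 15 of miR167 and 2 of 6 of miR398, and no test was run on these counts. miR159 represses GAMYB transcription factor genes and miR319 represses TCP genes that control leaf growth. bdi-miR159a-3p had 1898 in L6CG_N and 1933 in L6WH_N, against 746 in L6CG_C and 655 in L6WH_C (log2 change 1.45 ± 0.28, adjusted p = 0.0658, limma). Its other arm, bdi-miR159a-5p_R+1, had 557 in L6CG_N and 499 in L6WH_N, against 175 in L6CG_C and 164 in L6WH_C (log2 change 1.64 ± 0.29, adjusted p = 0.0547). The values of bdi-miR159a-3p and bdi-miR159a-5p_R+1 lay close together within each treatment, and neither was called. tae-miR319_L-1R+1 had 399 in L6CG_N and 298 in L6WH_N, against 147 in L6CG_C and 128 in L6WH_C.

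tae-miR9672a-3p had 1704 in L6CG_N and 1941 in L6WH_N, against 664 in L6CG_C and 471 in L6WH_C (adjusted p = 0.0645, limma). ata-miR5062a-3p_2ss2TC18AG had 3054 in L6CG_N and 2617 in L6WH_N, against 964 in L6CG_C and 1043 in L6WH_C (adjusted p = 0.0658). Both were separated between treatments and missed the threshold. Variants of gma-MIR5368, of which several share the same values, were in part at 0 in the control libraries. gma-MIR5368-p3_1ss4GA_1 had 37.1 in L6CG_N and 14.9 in L6WH_N, against 0 in both L6CG_C and L6WH_C.

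Of the auxin families, miR160 and miR167 repress auxin response factor genes, miR393 represses the auxin receptor genes, and miR390 triggers trans-acting siRNAs that act on auxin response factors. Of 28 members none was called, and the median log2 change was 0.72. In both pairs 3 were higher and 2 lower (10.7% and 7.14%), against 5.24% and 10.1% of all members. ata-miR167b-3p, followed by qPCR in the study, had 8213 in L6CG_N and 8407 in L6WH_N, against 2917 in L6CG_C and 2741 in L6WH_C (log2 change 1.55 ± 0.31, adjusted p = 0.069, limma). ata-miR393-5p had 21278 in L6CG_N and 18286 in L6WH_N, against 12829 in L6CG_C and 9705 in L6WH_C (log2 change 0.82 ± 0.28, adjusted p = 0.186). ttu-miR160 had 1738 in L6CG_N and 2862 in L6WH_N, against 1324 in L6CG_C and 725 in L6WH_C (adjusted p = 0.222). The qPCR miRNA osa-miR393a_L+1R+2 was near the floor, with 17.6 in L6CG_N and 14.9 in L6WH_N, against 5.39 in L6CG_C and 5.03 in L6WH_C. These counts were higher without N in both pairs. By qPCR the paper reports the opposite direction, a significant fall of this miRNA without N in either genotype and with either parental treatment. For ttu-miR160 the libraries of the L6WH pair lay further apart than those of the L6CG pair.

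The leaf, meristem and flower families carried a large share of the reads. The list of miR159, miR319, miR164, miR165, miR166, miR171, miR394 and miR396 had 58 members, of which none was called. In both pairs 7 were higher and 2 lower (12.1% and 3.45%), against 5.24% and 10.1% of all members. The list held 29.3% of the reads in L6CG_N and 36.5% in L6WH_N, against 26.3% in L6CG_C and 21.4% in L6WH_C. osa-miR396e-5p, which represses growth-regulating factor genes, was the most abundant sequence. It had 251725 in L6CG_N and 391698 in L6WH_N, against 178913 in L6CG_C and 109343 in L6WH_C (log2 change 1.17 ± 0.39, adjusted p = 0.186, limma). ata-miR396c-5p, of the same family, had 19699 in L6CG_N and 30588 in L6WH_N, against 62421 in L6CG_C and 36116 in L6WH_C. These abundant strands of miR396 thus pointed in opposite directions.

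miR156, which represses SPL genes and holds the juvenile phase, and miR172, which represses AP2-like genes, had 15 members on the phase-change list. None was called. In the L6CG pair 0 were higher and 4 lower, against 16.0% and 20.8% of all members. In the L6WH pair 8 were higher and 2 lower, against 14.4% and 21.1%. zma-miR156d-3p_R+1_1ss8TC had 3692 in L6CG_N and 4128 in L6WH_N, against 2042 in L6CG_C and 1483 in L6WH_C. ata-miR172b-3p had 2140.2 in L6CG_N and 2844 in L6WH_N, against 3013 in L6CG_C and 2328 in L6WH_C, so its N-starved and control libraries overlapped. miR168, which represses ARGONAUTE itself, held 18.5% of the reads in L6CG_N and 18.1% in L6WH_N, against 17.1% in L6CG_C and 17.8% in L6WH_C, and neither of its 2 members passed in either pair.

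**Figure D4:**
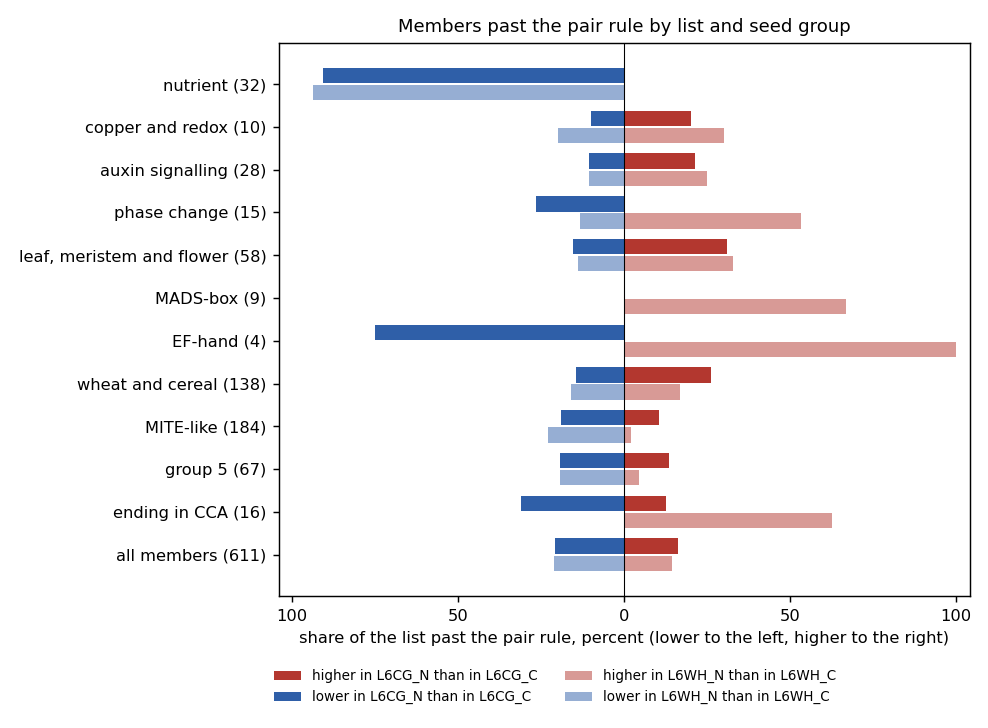
Share of each list's members past the pair rule, as percent of the number in brackets, with higher in the N-starved library to the right and lower to the left, and the L6CG pair above the paler L6WH pair. The mineral-supply list (nutrient) lies almost wholly to the left in both pairs, and the EF-hand, MADS-box and phase-change lists have members higher in the L6WH pair and 0 higher in the L6CG pair.

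The pairs of libraries also parted in miR1432, which in rice represses EF-hand calcium-binding protein genes. Its 5p reads differ at their ends, and ata-miR1432-5p_L+1R-1 and sbi-miR1432 share a seed:
ata-miR1432-5p_L+1R-1: aTCAGGAGagatgacaccgac
sbi-miR1432: cTCAGGAGagatgacaccgac
osa-miR1432-5p_L-1R+1: tCAGGAGAgatgacaccgaca

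ata-miR1432-5p_L+1R-1 had 1712 in L6CG_N and 4455 in L6WH_N, against 7417 in L6CG_C and 706 in L6WH_C. Its log2 ratio was -2.11 (95% interval -2.19 to -2.04) in the L6CG pair and 2.66 (2.56 to 2.76) in the L6WH pair. sbi-miR1432 had 70.2 in L6CG_N and 258 in L6WH_N, against 1881 in L6CG_C and 86.2 in L6WH_C. osa-miR1432-5p_L-1R+1 had 187 in L6CG_N and 448 in L6WH_N, against 666 in L6CG_C and 29.4 in L6WH_C. All 3 were highest in L6CG_C, and the N-starved values lay between those of the control libraries for ata-miR1432-5p_L+1R-1 and osa-miR1432-5p_L-1R+1. With 1 library per condition, a difference between the pairs is a difference between these 4 libraries and was not tested against replicate error.

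Of the 17 sequences that passed in opposite directions, ata-miR164b-5p was the most abundant. This repressor of NAC genes had 10159 in L6CG_N and 24818 in L6WH_N, against 21675 in L6CG_C and 11848 in L6WH_C. In bdi-MIR7757-p3_1ss6AG the order was turned round, with 6254 in L6CG_N and 1934 in L6WH_N, against 3013 in L6CG_C and 4610.1 in L6WH_C. Outside these 17, bdi-miR5062a_1ss22CA was listed in 1 library of the series only, at 1453 in L6CG_C, and at 0 in L6CG_N, L6WH_N and L6WH_C.

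**Figure D5:**
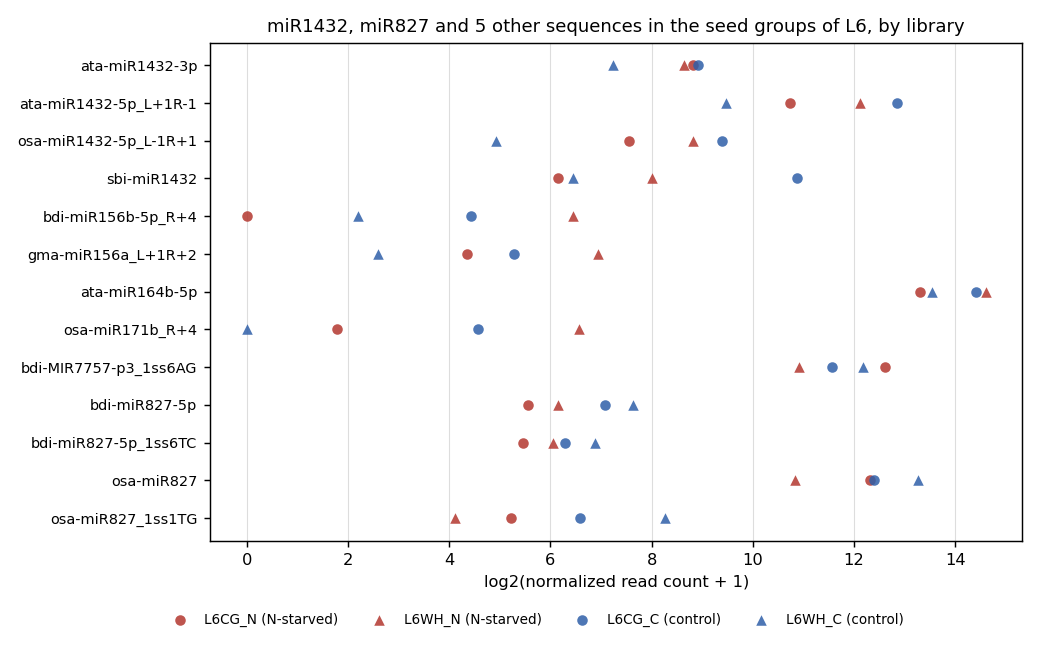
Normalized read counts, as log2 of the count plus 1, of all members of miR1432 and miR827 and of 5 other sequences chosen after their values were seen, in the N-starved (red) and control (blue) libraries, with circles for CG and triangles for WH seeds. For the 5p reads of miR1432 the blue circle lies to the right of the other points, and for osa-miR827 both circles nearly coincide while the red triangle lies left of the blue one.

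Of 16 members that end in the letters CCA none was called. In the L6CG pair 2 were higher and 5 lower, against 16.0% and 20.8% of all members, and in the L6WH pair 10 were higher and 0 lower, against 14.4% and 21.1%. Of the 16, 2 passed in opposite directions and 8 had the same sign in both pairs, against 2.78% and 63.2% of all members. Among the most abundant of them were ttu-miR160 and osa-miR160f-5p, whose names mark no change from the miRBase entry. Forms of miR156 with bases added at the 3′ end are on the list as well:
gma-miR156a_L+1R+2: tTGACAGAagagagtgagcacca
mes-miR156a_L+1R+3: tTGACAGAagagagtgagcaccca

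gma-miR156a_L+1R+2 had 19.5 in L6CG_N and 122 in L6WH_N, against 37.7 in L6CG_C and 5.03 in L6WH_C. mes-miR156a_L+1R+3 had 79.0 in L6CG_N and 277 in L6WH_N, against 72.2 in L6CG_C and 50.3 in L6WH_C. The MADS-box list, miR444 of monocots, had 9 members. In the L6WH pair 6 were higher and 0 lower, against 14.4% and 21.1% of all members. In the L6CG pair 0 passed, against 16.0% higher and 20.8% lower of all members. osa-miR444b.1 had 3462 in L6CG_N and 3457 in L6WH_N, against 3142 in L6CG_C and 1582 in L6WH_C. Here the values of both N-starved libraries and of L6CG_C lay close together and L6WH_C lay below. Counts of members higher in the L6WH pair moved with the scaling: with libraries set to equal totals, that pair had 52 higher and 184 lower over all members, in place of 88 and 129.

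The list of families known mostly from wheat and other cereals had 138 members, with 1 called rise and 0 called falls. In both pairs 13 were higher and 10 lower (9.42% and 7.25%), against 5.24% and 10.1% of all members. miR5368, named from Glycine max (gma), had 28 of the 138 members and 7 of these 13. Among the abundant members of the list, tae-miR7757-5p_1ss2TC had 107038 in L6CG_N and 129743 in L6WH_N, against 151676 in L6CG_C and 120750 in L6WH_C. tae-miR9674b-5p had 94486 in L6CG_N and 113375 in L6WH_N, against 103959 in L6CG_C and 76591 in L6WH_C. For both of these the N-starved and control libraries overlapped. The families that resemble miniature inverted-repeat transposons had 184 members, of which none was called. In both pairs 1 was higher and 9 lower (0.543% and 4.89%), against 5.24% and 10.1% of all members. In the L6CG pair 19 of the 184 were higher (10.3%) and 35 lower, against 16.0% and 20.8% of all members. In the L6WH pair 4 were higher (2.17%) and 42 lower (22.8%), against 14.4% and 21.1% of all members, so the lower counts were near those of all members. Of 67 entries without a miRBase match, none was called. In both pairs 2 were higher and 7 lower (2.99% and 10.4%), against 5.24% and 10.1% of all members. PC-5p-627_5996, the most abundant of the 67, had 2402 in L6CG_N and 2821 in L6WH_N, against 1889 in L6CG_C and 1819 in L6WH_C, and was listed at 0 in all 4 DBA Aurora libraries. PC-3p-361_12038 had 2809 in L6CG_N and 2704 in L6WH_N, against 1289.9 in L6CG_C and 1357 in L6WH_C (log2 change 1.06 ± 0.28, adjusted p = 0.125, limma).

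In length, the sequences past the rule in both pairs held fewer of 24 nt. Of those higher in both, 9.38% were 24 nt long, and of those lower in both 9.68%, against 22.6% of all members, and no test was run on these shares. Median GC content was 52.4% in either set and 47.6% over all members. Entries of group 1, whose miRBase precursor also mapped to the durum wheat genome, made up 43.5% of the lower set, against 31.1% of all members. The lower set held 24 sequences of miR169, so its shares describe that family in large part. Of the 62 lower in both pairs, 48.4% were 21 nt long, against 51.4% of all members, and 37.1% began with T, against 44.7%. Of the 32 higher in both pairs, 50.0% were 21 nt long and 28.1% began with T. The 18 and 19 nt reads took 2.20% of the reads in L6CG_N and 0.768% in L6WH_N, against 1.44% in L6CG_C and 2.11% in L6WH_C, so short reads did not follow N supply in 1 direction.

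The response was also set beside that of DBA Aurora in the same fit. The difference in N response between L6 and DBA Aurora was called for 0 sequences (0.00%), with 29 at an unadjusted p under 0.05 and a smallest adjusted p of 0.823 (limma). ata-miR169a-3p was listed at 0 in both N-starved DBA Aurora libraries and at 3526 and 3789.6 in the control ones, so its fall was measured against the floor there. ata-miR390-3p_L-1 had 7.80 in L6CG_N and 17.5 in L6WH_N, against 47.4 in L6CG_C and 49.6 in L6WH_C, and in DBA Aurora 0 in both N-starved libraries against 31.3 and 56.5 in the control libraries. tae-MIR9664-p5 had a log2 change of -0.52 in L6 and 2.61 in DBA Aurora (unadjusted p of the difference 0.00548, adjusted p = 0.823). Among families the smallest adjusted p of the difference was 0.106, for miR9664.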

How the data were processed

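The 8 small RNA libraries were made from pooled shoot RNA (6 plants each), read as 50-nt single ends, and annotated by the authors (ACGT101-miR, with miRBase and the Svevo.v1 assembly as references and RNAfold for hairpins). The paper names an Illumina HiSeq and the sample labels a NovaSeq. The deposited signal values are the authors' normalized read counts per entry, while the sources used here do not give each library's scaling factor. A second sheet holds definitions only and was not used. From 95.1 to 97.4% of low values in a library were whole multiples (within 0.02) of 1 step, taken as the value of 1 read, and these gave the estimated reads, intervals and floors. As the others were fractions of a read, no count model was run across libraries. The totals are those of the miRNA table and not of the whole libraries.

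The 1532 entries held 1473 distinct sequences, of which 611 had a mean of 10 or more over the 4 L6 libraries and held 99.77% of the L6 counts. The log2 of the normalized count plus 1 was modelled over the 8 libraries in R 4.3.3 with limma 3.58.1, its variances moderated along a mean trend, with each seed group as a block and an N effect for each genotype. This leaves 2 residual degrees of freedom. p-values were adjusted by Benjamini-Hochberg over all 611 sequences, and for family totals over 105 families. The block pairs libraries by parental treatment, as the labels give it. Since every condition is 1 pool, p-values rest on the spread of the N effect between seed groups of both genotypes. That spread is both biological and technical, and was moderated towards the trend over all sequences or families (prior degrees of freedom 3.24 for sequences). An SE can thus be smaller than the L6 pairs alone would give. The miR827 total had an SE of 0.44, with log2 ratios of -0.13 (L6CG) and -2.39 (L6WH). The adjusted p of the miR169 total was 4.3e-08 (limma), and 0.0162 with quantile normalization. Fold changes on this scale understate those of low sequences above 0, and overstate falls to 0 relative to the floor of 5 reads. Pairs of libraries were compared by Fisher's exact test (scipy 1.17.1) on rounded values. The fit and the pair rule were run on simulated data, with noise of 1 size for all sequences (fit) or counting noise alone (rule). These runs check the computation and cannot speak to the error of 1 pool per condition. Alternatives were the pseudocount, scaling, filter, block, zeros, trend, left-out pairs and the samples fitted. For the pair rule, raising zeros to the floor was added after seeing the data.

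Named are the largest called rises and falls (for rises, where only 1 passed, the 5 with the lowest p), the most abundant members overall and of each list, the largest changes of each pair, those that differ most between the pairs or, by p, between the genotypes, the called families and the study's 6 qPCR miRNAs. A few others, picked to show a count, were chosen after their values were seen. The members, lists and this rule were chosen with earlier results of these data known. Loci were placed on chromosomes by matching the order and length of the table's genome records to the annotation of Svevo.v1. No sequence of the genome was used here.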

Additional observations from a re-analysis of the deposited data

Results flagged for a closer look

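tae-MIR1122c-p5_2ss4AG21GC, a 5p sequence of a family that resembles miniature inverted-repeat transposons, had log2 changes of opposite sign in the 2 genotypes. It had 46.8 in L6CG_N and 39.6 in L6WH_N, against 18.3 in L6CG_C and 18.7 in L6WH_C, and in DBA Aurora 7.84 and 5.09 without N, against 17.0 and 26.3 in the controls. The N-starved DBA Aurora values equal the floor of 5 reads in AuCG_N (7.84) and AuWH_N (5.09), so the fall there was measured at the floor. The log2 change in L6 minus that in DBA Aurora was 2.771. In the fit over all sequences this difference was not called (unadjusted p = 0.0115, adjusted p = 0.823, limma).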

How the results depend on the processing

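The number of called sequences (21) depended on several settings. It was 53 with a pseudocount of 5, 33 with libraries scaled to equal totals, 10 with no filter on low values, 53 without the parental block and 60 with zeros raised to the floor of 5 reads. It was 30 with quantile normalization, 17 with the L6 libraries alone and 21 with no trend. All 21 calls were kept with a pseudocount of 5, with quantile normalization, without the block and with raised zeros, 20 with equal totals, 18 with no trend (2 rises and 19 falls; bdi-miR399a_1ss16AG, ata-miR169g-3p_L+1R-1 and tae-miR9676-5p were lost), 14 with L6 alone and 10 with no filter. Leaving out a seed group in turn gave 0 to 13: without either L6 pair no sequence was called (97 and 119 at an unadjusted p under 0.05), and without either DBA Aurora pair 13 were, 12 of the 21 among them. The called families (8) came to 14 with a pseudocount of 5, 3 with quantile normalization, 5 with no filter, 13 with L6 alone and 9 with the mean of member log2 values (5 of the 8 among them; miR399, miR530 and miR9654 were lost), and leaving out a seed group gave 0 to 13 (0 without the L6CG pair, 1 without the L6WH pair). The pair rule gave 93 sequences for L6CG and 96 for L6WH among those at 100 or more in 1 library of the pair. None of the 21 called sequences and 8 called families reversed its direction under these alternatives; the other named sequences were not followed through them, and those past the rule in opposite directions, such as ata-miR1432-5p_L+1R-1, change sign with the pair used. Equal totals moved the median log2 change of all members to -0.31 and quantile normalization moved it to 0.16, from -0.06. Difference calls between the genotypes stayed at 0 in all alternatives. Alternatives planned as count models on recovered reads were not run, since some low values are fractions of a read. Values under 5 reads are not resolved, so falls to 0 are lower bounds.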
